A study of Mus musculus with 4 samples.

Results

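The libraries numbered 2, KI-2 and WT-2, were set against the libraries numbered 1, KI-1 and WT-1, which makes 2 of the 4 libraries of the series on each side, with 1 of each genotype in both. The members were chosen by the number in the library titles, and genotype was kept as a term. KI libraries came from C57BL/6 mice heterozygous for the frameshift knock-in allele Asxl1G643fs/+, WT libraries from C57BL/6 Asxl1+/+ mice, all aged 8 weeks and with no treatment named. RNA came from LSK cells, the lineage-negative, Sca-1-positive, Kit-positive fraction of bone marrow with the blood-forming stem cells and early multipotent progenitors, sorted on a FACSAria III from 8 mice of each genotype. The labels do not say how those mice were divided over the libraries, and they give the numbers 1 and 2 no meaning beyond the design text's word duplicate. Separate animals, pools, sorts, RNA extractions, library preparations and sequencing runs thus cannot be told apart here, and the p-values speak only for the spread of these 4 libraries, part or all of which may be technical.

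Freshly isolated blood progenitors change some RNAs quickly. Immediate early genes such as Fos, Jun and Egr1 are transcribed within minutes when cells are warmed, dissociated or stimulated, and their mRNAs decay as quickly. Most mRNAs end in a poly(A) tail, but the histone mRNAs made during DNA replication end in a short stem-loop instead, and some long nuclear RNAs such as Malat1 also lack an ordinary tail, so that the measured level of these RNAs depends on how RNA is selected and primed as well as on the cells. A sorted fraction can also carry a few other cells, such as neutrophils or B-lineage cells, whose most abundant mRNAs are then read at low levels.

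Values are FPKM, read fragments divided by the length of the transcript and the size of the library, as the authors deposited them, summed per gene symbol and rescaled so that the 4 libraries have the same median. Before rescaling, the listed values summed to 411542 in KI-2 and 402754 in WT-2, against 324255 in KI-1 and 337313 in WT-1, and the number of fragments per library is unknown. Of 13749 symbols, 11083 had a mean FPKM of at least 1 and were tested; Etl4 lay just inside this limit at 1.0 and Pde9a just outside at 0.999. Differences are given on the log2(FPKM + 1) scale as number 2 minus number 1, averaged over the genotypes, which understates the change of low genes. A gene is called higher or lower where limma gave a Benjamini-Hochberg adjusted p under 0.05 over all tested genes. Asxl1, the gene carrying the knock-in allele, which encodes a chromatin protein of the Polycomb and BAP1 system, stood at 17.4 FPKM in KI-2 and 17 in WT-2, against 24.3 in KI-1 and 23.0 in WT-1. Both values of number 2 lay below both of number 1 (log2 difference -0.44, SE 0.089, limma adjusted p = 0.0233), but the gene was not called without KI-2 (adjusted p = 0.110) or without WT-2 (0.129). A frameshift allele need not alter the mRNA level, so these values check the genotype labels only weakly.

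The libraries differed by number in 2360 of the 11083 genes, or 21.3%, with 1135 genes higher (10.2%) and 1225 lower (11.1%) in number 2. Messenger RNAs of histones, immediate early genes, mitosis and splicing factors and several nuclear noncoding RNAs were lower, while those of ribosomes, mitochondria and the pre-B cell receptor were higher. In 79 genes the rise and in 127 genes the fall was at least 1 on the log2 scale, and in 4 and 17 genes it was at least 2. The smallest called difference was 0.29. All 2360 called genes moved in the same direction in KI and in WT. The fit takes a gene's own spread from the disagreement between the genotypes, so that genes of opposite sign could hardly be called. Across all tested genes, the difference within KI and the difference within WT, which share no library, had a Pearson's r of 0.69 over 11083 genes, which are not independent replicates, and the same sign in 75.4% of genes. The SD of the differences over genes was 0.40 between the numbers and 0.20 between the genotypes. Between KI and WT, limma called 1 gene, or 0.00902%, with the number as a replicate block, Mir8094, chosen after its values were seen (KI minus WT log2 difference -1.52, adjusted p = 0.0163), and 0 genes on genotype alone, where 109 had an unadjusted p under 0.05. The libraries of number 2 did not overlap those of number 1 in 64.0% of tested genes, lying above them in 34% and below them in 30%.

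**Figure D1:**
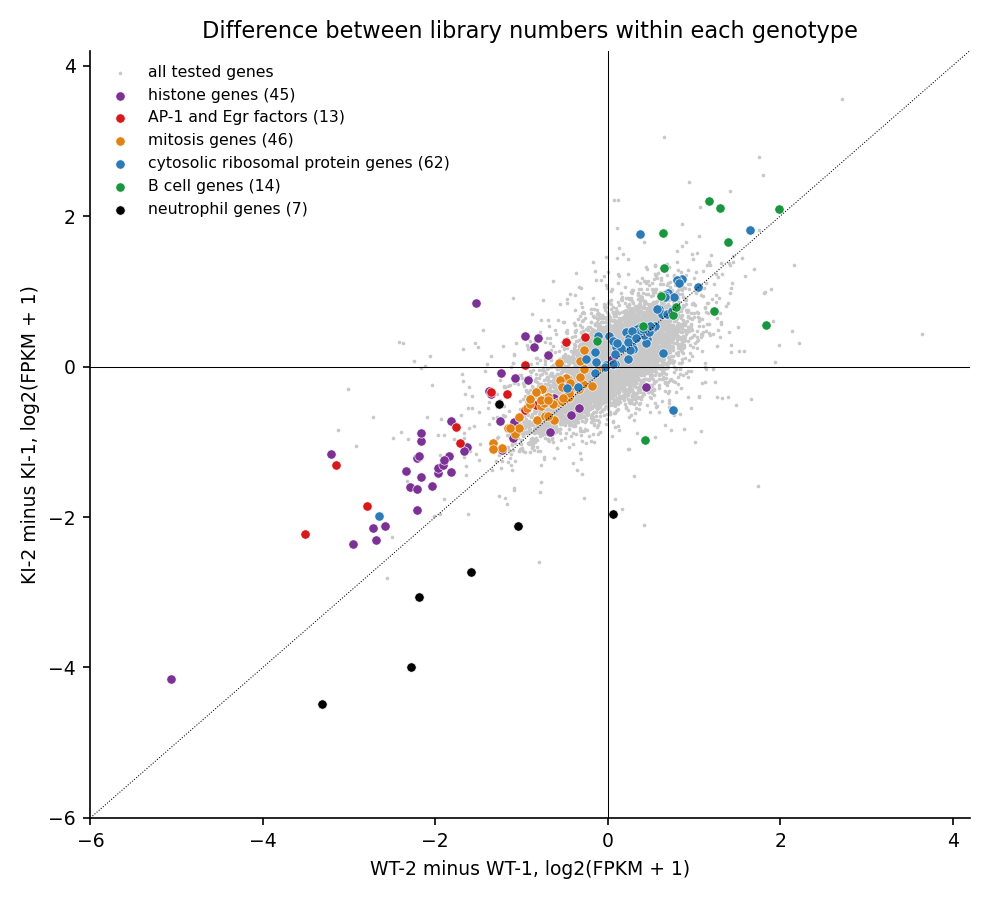
Each point is a gene: the log2(FPKM + 1) difference of KI-2 minus KI-1 (vertical axis) is plotted against that of WT-2 minus WT-1 (horizontal axis), with 6 gene lists coloured and the number of tested members in brackets. The cloud runs along the dotted line of equality (r = 0.69), histone genes and AP-1 and Egr factors lie mostly below 0 on both axes and further from 0 in WT, and neutrophil genes lie further from 0 in KI.

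With 1 residual degree of freedom, the count of called genes depends on how limma shares the spread between genes: 1097 genes were called with a single prior variance, and 0 of 13826 transcripts when each was tested on its own, of which 3620 had an unadjusted p under 0.05. Without KI-2 the count was 550 and without WT-2 it was 564, fits of 3 libraries that leave no room for the genotype term. Of the 94 called genes named here and in the closing section, 30 lost the call without KI-2, 28 without WT-2, 7 without KI-1 and 5 without WT-1. Without any rescaling, the median difference of all genes moved by 0.24, to 0.27 against 0.03 with rescaling, and 4110 of 4659 called genes were higher, so that directions are given below relative to the median gene.

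The difference followed the length, base composition and exon number of transcripts. Short, GC-rich transcripts with few exons tended to be higher in number 2, and long, AT-rich transcripts with many exons tended to be lower. Genes called higher had a median transcript length of 1533 bases, 54.0% GC and 5 exons, and genes called lower had 3686 bases, 45.3% GC and 13 exons, where all tested genes with a matched transcript had 2848 bases, 50.2% GC and 9 exons. Tested genes were divided by each property into 5 bins, of about equal size for length and GC content and of 1462 to 2552 genes for exon number. In the bin of shortest transcripts, up to 1613 bases, 605 of 2191 genes were called higher and 143 lower, with a median difference of 0.21, and in the bin of longest transcripts 35 were called higher and 423 lower, with a median of -0.12. The GC-poorest bin held 54 genes called higher and 522 lower, and the GC-richest bin held 369 higher and 98 lower. Among the 2419 genes with 16 or more exons, 26 were called higher and 506 lower.

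**Figure D2:**
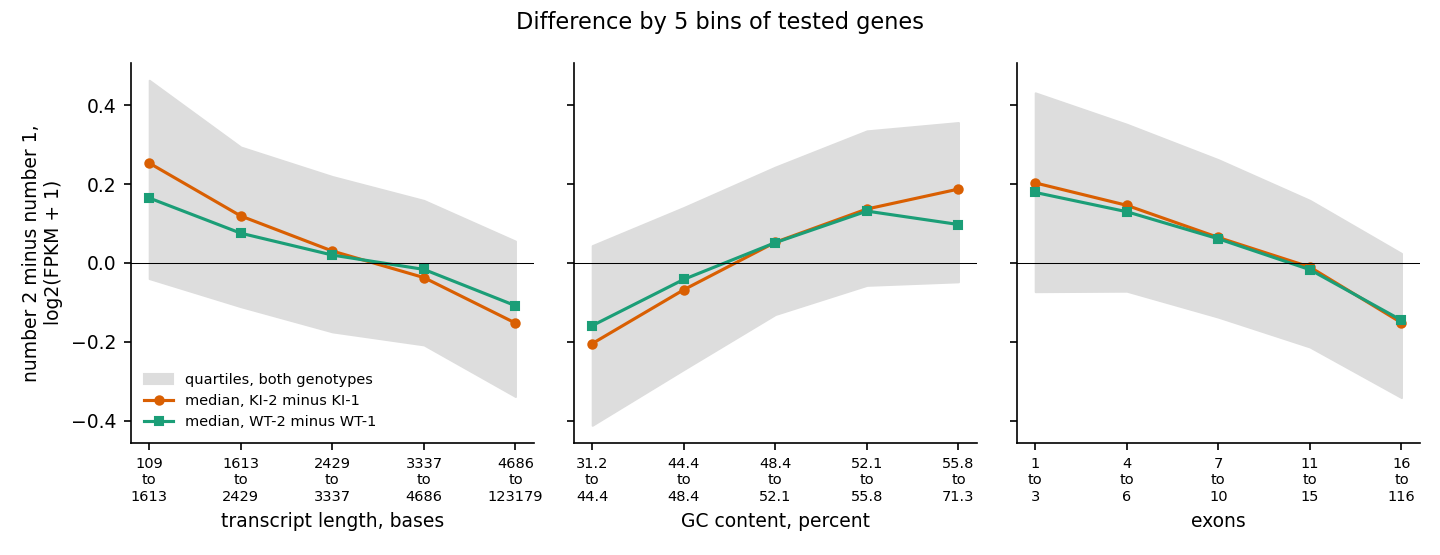
Median log2(FPKM + 1) difference, number 2 minus number 1, over 5 bins of the tested genes by transcript length, GC content and exon number; orange circles are KI-2 minus KI-1, green squares WT-2 minus WT-1, and the grey band spans the quartiles of the difference averaged over both genotypes. In both genotypes the medians fall with length and exon number, from 0.21 in the shortest to -0.12 in the longest bin for the average. They climb with GC content, except that in WT the GC-richest bin, at 0.098, lies below the bin before it, at 0.13.

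As a description over 10953 genes, Spearman's rho of the difference was -0.33 with transcript length, 0.36 with GC content and -0.35 with exon number, while length and GC content had a rho of -0.26 with each other. With the level of the gene, the mean FPKM, rho was -0.07. The same pattern was seen within each genotype, with a rho for length of -0.37 in KI and -0.25 in WT. After smooth trends in length and GC content were subtracted, a step added after the data were seen, 689 genes were called, 233 higher and 456 lower, and 651 of them were among the 2360 called without it. Lists of short or long genes below carry this trend, and their values after subtraction stand beside them. The filter on the mean of all libraries also let through genes held up by 1 number: 77 tested genes had a mean under 1 FPKM in number 2 and 257 in number 1. Such genes had to differ, so their values are given with no p and support nothing.

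Nuclear noncoding RNAs were among the genes with the strongest falls. Of 12 tested nuclear long noncoding RNAs, 5 were called lower and 0 higher, against 11.1% and 10.2% of all genes. The median difference was -0.25, against 0.03 for all genes. The median was -0.45 without KI-1, and -0.40 with 3 of 11 called lower after the trends were subtracted. Malat1, at chr19:5795690-5802672 (GRCm38), is a nuclear speckle RNA whose 3′ end is cut by RNase P and carries no ordinary poly(A) tail. It stood at 30.5 FPKM in KI-2 and 32.2 in WT-2, against 221 in KI-1 and 194 in WT-1, so that both libraries of number 1 held many times the level of number 2 (log2 difference -2.69, SE 0.094, limma adjusted p = 0.000943). Neat1, the scaffold RNA of paraspeckles that lies next to Malat1 on chromosome 19, stood at 13.1 and 21.7 FPKM in KI-2 and WT-2, against 45.6 and 53.3 in KI-1 and WT-1. The levels did not overlap between the numbers, and the log2 difference was -1.49.

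Xist, the RNA that coats the inactive X chromosome, stood at 48.6 FPKM in KI-2 and 31.6 in WT-2, against 113 in KI-1 and 102 in WT-1 (log2 difference -1.43, limma adjusted p = 0.00519). Its antisense partner Tsix had a log2 difference of -1.54, but the genes overlap at chrX:103460373-103483233, and the sources used here do not say that strand was kept, so that reads of Tsix and Xist cannot be told apart. Ftx, another noncoding RNA of the X-inactivation centre, fell by 0.86 on the log2 scale. Among the 8 tested X-linked genes known to escape inactivation, Xist included, 6 were called lower and 0 higher, against 11.1% and 10.2% of all genes. The RNA helicase gene Ddx3x fell by 0.83 and the histone demethylase gene Kdm6a by 0.59. Kdm6a and Ftx were not called without KI-2 or without WT-2. Their median of -0.46 stood beside a median transcript length of 5314 bases and 42.0% GC, and it was -0.33 with 2 called genes after the trends were subtracted.

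Genes that host or encode small nucleolar RNAs did not move together. Of 18 tested host and growth-linked noncoding genes, 4 were called lower and 2 higher, against 11.1% and 10.2% of all genes, with a median of -0.19. The median was -0.33 without KI-1 and -0.01 without WT-1, and -0.27 with 4 of 16 called lower and 1 higher after the trends were subtracted. Gas5, a host of several small nucleolar RNAs whose own mRNA is degraded when ribosomes translate it, stood at 47.2 FPKM in KI-2 and 54.1 in WT-2, against 190 in KI-1 and 221 in WT-1 (log2 difference -2.0, limma adjusted p = 0.000943). The groups lay far apart and the genotypes were close to each other within each number. Snhg8 fell by 1.05, whereas 2810008D09Rik, also listed as Snhg20, stood at 8.52 and 9.36 FPKM in KI-2 and WT-2 against 2.49 and 2.52 in KI-1 and WT-1 and rose by 1.5. Snora31, a guide RNA for pseudouridylation that lies within the gene Tpt1, stood at 137 and 108 FPKM in KI-2 and WT-2, against 665 and 617 in KI-1 and WT-1, and can share reads with its host. Over all 351 tested noncoding genes, 57 were called lower and 24 higher, or 16.2% and 6.8%, against 11.1% and 10.2% of all genes.

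Most tested histone genes were lower in number 2. Of 56 listed genes for histones, nearly all of the replication-dependent kind, 45 passed the filter on FPKM, and of these 31 were called lower and 0 higher in number 2, against 11.1% and 10.2% of all tested genes. For 15 of the 45, 12 of them called lower, the mean in number 2 was under 1 FPKM, so that they passed only through number 1, and neither the count nor the median stands for all 56 genes. The median difference was -1.40, with -1.06 within KI and -1.81 within WT. WT-1 held the highest value of the 4 libraries in 41 of the 45 genes, against 25.4% of all tested genes. Their summed level was 173 FPKM in KI-2 and 210 in WT-2, against 323.7 in KI-1 and 597 in WT-1.

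Hist1h2af, an H2A gene in the large histone cluster of chromosome 13, stood at 1.04 FPKM in KI-2 and 0.655 in WT-2, against 35.5 in KI-1 and 54.6 in WT-1, the strongest fall of all genes called (log2 difference -4.61). Among the linker histones, which bind DNA between nucleosomes, Hist1h1b stood at 0.666 and 0.873 FPKM in KI-2 and WT-2, against 7.52 and 13.5 in KI-1 and WT-1. Both genes passed the filter only through number 1. By histone type, 4 of 5 H1 genes were called lower (median -2.19), 10 of 12 H2A genes (-1.68), 10 of 18 H2B genes (-0.89), 5 of 5 H3 genes (-1.53) and 2 of 4 H4 genes (-0.55). Histone genes are near copies of each other, and how reads were shared between them is not given in the sources used here, so that the values of single genes are uncertain. With the trends in length and GC content subtracted, the median was -1.43 and 25 of 45 remained called lower. The counts and medians by type and after subtraction include the 15 genes that passed the filter only through number 1. Such genes had to differ, so these are given as values only.

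Near the 3′ ends of some annotated histone transcripts lies the sequence that replaces the poly(A) tail. It is a stem of paired bases around a loop of T residues, recognised by the stem-loop binding protein. In the DNA alphabet of the GENCODE M21 transcripts (GRCm38), with capitals for the 16-base stem-loop, the ends of 4 genes read as follows.
Hist1h3a, chr13:23761885-23761910, minus strand: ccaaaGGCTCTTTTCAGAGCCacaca
Hist2h2ac, chr3:96220413-96220438, minus strand: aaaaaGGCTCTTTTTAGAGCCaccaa
Hist1h2bb, chr13:23747198-23747223, plus strand: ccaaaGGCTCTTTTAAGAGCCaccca
Hist1h4h, chr13:23531453-23531478, plus strand: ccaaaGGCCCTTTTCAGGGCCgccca
Other annotated histone transcripts hold the poly(A) signal AATAAA in the last 50 bases and no such stem-loop in the last 100 bases. A stem-loop further upstream was not searched for. AATAAA is shown in capitals with the bases around it.
Hist1h1c, chr13:23740332-23740357, plus strand: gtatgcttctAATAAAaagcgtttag
H1f0, chr15:79030473-79030498, plus strand: aaaactttaaAATAAAactggaaagg
Hist2h2be, chr3:96223707-96223732, plus strand: tattattattAATAAAgttaccgatt
The first 3 of these 7 genes were called lower, of which Hist1h3a and Hist2h2ac passed the filter only through number 1 and Hist1h2bb was not called without KI-2. The other 4 were not called.

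The stem-loop pattern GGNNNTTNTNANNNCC, searched on the transcript strand in the last 100 bases, was found in 14 of the 45 histone transcripts and in 0.219% of all 10953 tested transcripts. It was found in 0 of 1173 other genes called lower and in 0 of 1125 genes called higher. AATAAA in the last 50 bases was found in 8 of the histone transcripts and in 63.6% of all transcripts. A transcript without a pattern may hold it outside these windows. These patterns and the grouping by them were chosen after the values were seen, so the counts are a description. Histone genes with the stem-loop and no AATAAA were called lower in 11 of 14 cases, with a median of -1.59. Those with AATAAA and no stem-loop were called lower in 1 of 8 cases, with a median of -0.61. Those with neither were called lower in 19 of 23 cases, with a median of -1.53. The groups include the 15 genes, 12 of them called lower, that passed the filter only through number 1. Such genes had to differ, so the split by 3′ end is given as values only. Hist1h3a stood at 1.11 FPKM in KI-2 and 0.529 in WT-2, against 5.36 in KI-1 and 6.51 in WT-1. H1f0, a linker histone made outside DNA replication, stood at 33.8 and 43.6 FPKM in KI-2 and WT-2, against 31.3 and 41.9 in KI-1 and WT-1, and Hist2h2be at 3.23 and 4.23 against 4.11 and 2.84. For these 2 genes the numbers overlapped.

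**Figure D3:**
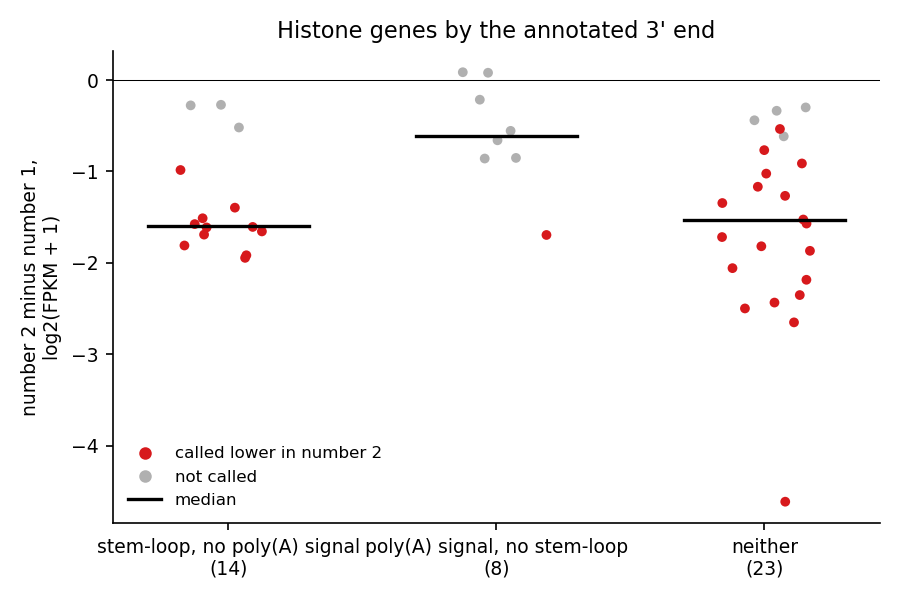
Each point is 1 of the 45 tested histone genes, placed by the 3′ end of its annotated transcript, with the log2(FPKM + 1) difference of number 2 minus number 1 on the vertical axis; red points were called lower, grey points were not, and bars are medians. Genes with a stem-loop and genes with neither pattern have medians of -1.59 and -1.53, and the 8 genes with a poly(A) signal have a median of -0.61. The stem-loop was searched in the last 100 bases only. The points include 15 genes, 12 of them called lower, that passed the filter only through number 1.

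Immediate early genes were lower in number 2, with the highest values in WT-1. Of 13 tested AP-1 and Egr factors, 9 were called lower and 0 higher, with a median of -0.77, and of 26 genes of the Klf, Dusp, Ier and Nr4a families 13 were called lower and 0 higher, with a median of -0.62. Over all tested genes, 11.1% were called lower and 10.2% higher. In both lists the difference was lower within WT than within KI in all 13 and in all 26 genes, of which 9 and 18 were lower in number 2 in both genotypes and 1 and 3 were higher in both, with medians of -0.51 in KI and -1.17 in WT for the first list and -0.26 and -0.89 for the second. WT-1 held the highest value in 10 of the 13 and 20 of the 26 genes, against 25.4% of all tested genes. Without WT-1 the list medians were -0.57 and -0.34, against -1.17 and -0.85 without KI-1. Whether the fall differs between genotypes could not be tested, since 4 libraries leave no degree of freedom for it.

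Fosb, a partner of Jun in the AP-1 complex, stood at 77.5 FPKM in KI-2 and 107 in WT-2, against 365 in KI-1 and 1232 in WT-1 (log2 difference -2.87, SE 0.28, limma adjusted p = 0.00542). Jun itself stood at 205 and 276 FPKM in KI-2 and WT-2, against 741 and 1918 in KI-1 and WT-1, and Fos at 516 and 638 against 1040 and 2094. For each of these genes the order was the same, with both libraries of number 2 lowest and WT-1 highest. Atf3, a stress-induced factor of the same family, stood at 10.8 and 12.3 FPKM in KI-2 and WT-2, against 28.2 and 118 in KI-1 and WT-1. Egr1, a zinc finger factor induced by growth signals, fell by 1.28 (limma adjusted p = 0.0143) and was not called without WT-2. Junb and Fosl2, also AP-1 members, had differences of -0.08 and 0.06 and overlapped between the numbers, and Myc, induced with slower kinetics, had 0.18 (limma adjusted p = 0.234).

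Among the other early genes, Klf2, which keeps lymphocytes quiescent, stood at 24.4 FPKM in KI-2 and 25.3 in WT-2, against 44.4 in KI-1 and 228 in WT-1 (log2 difference -1.98, limma adjusted p = 0.0356). Klf4 and Klf6 had the same shape, with 180 and 538 FPKM in WT-1. The phosphatase gene Dusp1, which switches off MAP kinases, stood at 112 and 153 FPKM in KI-2 and WT-2, against 221 and 529 in KI-1 and WT-1, and Zfp36, whose protein speeds the decay of AU-rich mRNAs, at 640 and 702 against 1359 and 2180. Rhob, a small GTPase gene with a short-lived mRNA, fell by 1.72. Fos, Atf3, Dusp1, Klf2, Klf4, Klf6 and Rhob were not called without KI-2 or without WT-2. Without WT-1 all 7 were called, with differences from -1.22 for Atf3 to -0.66 for Klf6. Without KI-1, Klf2, Klf4, Klf6 and Rhob lay between -3.15 and -2.61. With length and GC content subtracted, the medians of the lists were -0.88 and -0.75, with 4 and 6 genes called lower.

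Some promoters of early genes carry elements that respond to cyclic AMP and serum, and 4 called genes are shown, of which 3 hold such an element. The 150 bases before the RefSeq start (GRCm38.p6) are written on the gene's strand, with capitals for TGACGT in Fos, TGACGTCA in Dusp1 and the CArG box, the site of serum response factor, in Zfp36. None of these elements lies in the window of Fosb.
Fos, chr12:85473740-85473889, plus strand: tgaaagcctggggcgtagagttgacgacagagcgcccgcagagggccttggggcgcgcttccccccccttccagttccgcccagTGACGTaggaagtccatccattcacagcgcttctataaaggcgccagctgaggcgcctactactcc
Dusp1, chr17:26508473-26508622, minus strand: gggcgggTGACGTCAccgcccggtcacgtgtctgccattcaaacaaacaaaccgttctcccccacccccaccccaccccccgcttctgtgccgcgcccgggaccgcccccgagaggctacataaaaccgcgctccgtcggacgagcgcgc
Zfp36, chr7:28379229-28379378, minus strand: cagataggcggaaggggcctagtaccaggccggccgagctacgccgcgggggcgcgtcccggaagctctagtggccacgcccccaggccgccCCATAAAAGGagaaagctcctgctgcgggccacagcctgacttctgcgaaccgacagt
Fosb, chr7:19310046-19310195, minus strand: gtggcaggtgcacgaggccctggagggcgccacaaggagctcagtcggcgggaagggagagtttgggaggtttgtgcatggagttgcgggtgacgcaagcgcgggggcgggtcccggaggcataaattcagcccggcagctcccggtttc
In the 250 bases before the start, on either strand, TGACGT was found in 5 of 19 called early genes with a promoter in the table and in 10 of all 33 such early genes, called or not, or 30.3%, against 12.1% of 8970 tested genes. TGACGTCA, which contains TGACGT, was found in 3 of the 19 and 4 of the 33, against 3.09%, and the CArG box in 1 of the 19 and 4 of the 33, against 1.32%. The called genes thus did not hold TGACGT or the CArG box more often than the early genes as a whole. These matches are a description of letters, and a gene with no match may carry such elements outside this window.

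Feedback genes of NF-kB, the inflammatory transcription factor, were split. Of 19 tested, 5 were called lower and 0 higher, against 11.1% and 10.2% of all genes. The list median was -0.03, against 0.03 for all genes. After the trends were subtracted it was -0.14, with 4 called lower. Those 5 were the inhibitors Tnfaip3 (log2 difference -1.64), Nfkbiz (-1.34) and Nfkbia (-1.21), the subunit Rel (-1.54) and the cytokine gene Tnf (-1.05). Tnfaip3, a deubiquitinase gene induced within the first hour of signalling, stood at 36.3 FPKM in KI-2 and 32.4 in WT-2, against 71.5 in KI-1 and 166 in WT-1, and was not called without KI-2 or without WT-2. Its difference was -1.04 without WT-1. The subunit gene Nfkb1, by contrast, stood at 54.2 and 56.1 FPKM in KI-2 and WT-2 and at 58.0 and 54.9 in KI-1 and WT-1, and the numbers overlapped.

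Chaperone genes fell by less. Of 23 tested heat shock and chaperone genes, 9 were called lower and 0 higher, against 11.1% and 10.2% of all genes. The median was -0.40, with -0.09 within KI and -0.50 within WT. Hsp90aa1, the stress-induced HSP90 gene, stood at 495 FPKM in KI-2 and 453 in WT-2, against 713 in KI-1 and 772 in WT-1 (log2 difference -0.65, limma adjusted p = 0.0122). The classical heat shock genes Hspa1a and Hspa1b, near-identical copies whose reads cannot be assigned with certainty, were not called and were lowest in WT-2, at 0.178 and 0.299 FPKM. Hspa5, the chaperone of the endoplasmic reticulum and not a member of that list, stood at 274 and 214 FPKM in KI-2 and WT-2, against 437 and 1415 in KI-1 and WT-1, was chosen after its values were seen and was not called without KI-2 or without WT-2. Its difference was -0.85 without WT-1. Without WT-2 the median of the heat shock list was -0.25, and after the trends were subtracted it was -0.29 with 1 gene called lower. Without the 107 tested genes of the early, heat shock and histone lists, a choice also made after the data were seen, limma called 2758 of 10976 genes.

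**Figure D4:**
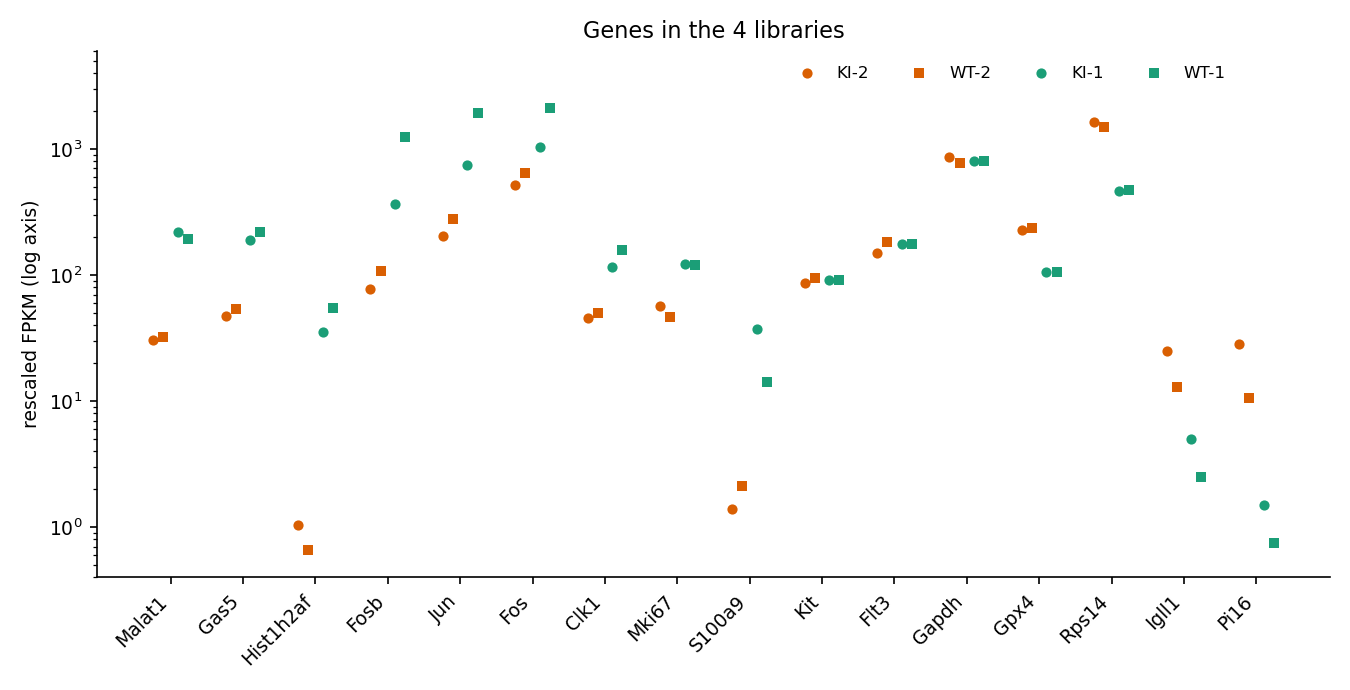
Rescaled FPKM on a log axis for 16 genes in the 4 libraries, with KI-2 and WT-2 in orange, KI-1 and WT-1 in green, circles for KI and squares for WT. Malat1, Gas5, Hist1h2af, Fosb, Jun, Fos, Clk1, Mki67 and S100a9 lie lower in both libraries of number 2, Gpx4, Rps14, Igll1 and Pi16 lie higher, and Kit, Flt3 and Gapdh overlap.

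Genes for ribosomal proteins were higher in number 2. Of 62 tested genes for proteins of the cytosolic ribosome, 29 were called higher and 2 lower, against 10.2% and 11.1% of all genes, with a median of 0.39. Together they held 20.8% of the listed FPKM in KI-2 and 20.8% in WT-2, against 16.4% in KI-1 and 16.1% in WT-1. Rps14, a protein of the small subunit whose loss impairs red cell formation, stood at 1629 FPKM in KI-2 and 1494 in WT-2, against 462 in KI-1 and 475 in WT-1 (log2 difference 1.73, SE 0.098, limma adjusted p = 0.00339). Gnb2l1, which encodes the ribosomal scaffold RACK1, stood at 1488 and 1382 FPKM in KI-2 and WT-2, against 715 and 666 in KI-1 and WT-1. Rpl19, of the large subunit, went the other way, with 50.1 and 27.4 FPKM in KI-2 and WT-2, against 202 and 177 in KI-1 and WT-1 (log2 difference -2.32). Ribosomal protein genes have many processed pseudogenes with near-identical sequence, so that single genes such as Rps14 and Rpl19 are uncertain. These mRNAs are short, with a median of 786 bases, and after the trends were subtracted the list median was 0.23 with 11 genes called higher.

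Genes of mitochondria followed. Of 79 nuclear genes for oxidative phosphorylation, 28 were called higher and 1 lower, with a median of 0.30, and of 74 mitochondrial ribosomal protein genes 21 were called higher and 1 lower, with a median of 0.27. Over all tested genes, 10.2% were called higher and 11.1% lower. Uqcrh, a subunit of complex III, stood at 418 FPKM in KI-2 and 432 in WT-2, against 186 in KI-1 and 244 in WT-1 (log2 difference 0.99, limma adjusted p = 0.00583). Cox7a2l, which joins respiratory complexes into supercomplexes, rose by 0.78 and Mrpl46 by 1.09, and Tomm5, a small subunit of the import pore of the outer membrane, by 1.35. The groups did not overlap for any of these 4 genes. Both lists hold short mRNAs, and after the trends were subtracted their medians were 0.12 and 0.15, with 7 and 9 genes called higher.

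Smaller shifts in the same direction were seen in protein and redox metabolism. The counts below stand beside 10.2% of all genes called higher and 11.1% called lower. Of 38 proteasome genes, 16 were called higher and 3 lower, with a median of 0.27, and Psmd13, of the regulatory lid, rose by 0.83 but was not called without KI-2. After the trends were subtracted the proteasome median was 0.096, with 4 genes called higher and 1 lower. Of 23 antioxidant and glutathione genes, 8 were called higher and 0 lower, with a median of 0.29, and 2 were called higher after the subtraction with the median at 0.29. Gpx4, the selenoenzyme that reduces lipid peroxides, stood at 228 FPKM in KI-2 and 234 in WT-2, against 105 in KI-1 and 105 in WT-1 (log2 difference 1.13, limma adjusted p = 0.00395). Selm, another selenoprotein gene, stood at 7.13 and 9.28 FPKM in KI-2 and WT-2, against 1.93 and 2.75 in KI-1 and WT-1. The number 2 libraries held more of both mRNAs in each genotype. Of 18 glycolysis genes, 4 were called higher and 0 lower, with Ldhb, the heart-type lactate dehydrogenase subunit, up by 0.63. The glycolysis median was 0.18, 0.12 without KI-2 and 0.054 with 0 called after the subtraction. Of 34 type I interferon response genes, 6 were called higher and 0 lower, against 10.2% and 11.1% of all genes, with a median of 0.27 that was 0.15 without KI-1. Usp18 had a difference of 0.55 and Bst2 of 0.54, and neither was called without KI-2 or without WT-2, nor Usp18 without WT-1. After the subtraction 0 of 33 interferon genes were called, with a median of 0.21.

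**Figure D5:**
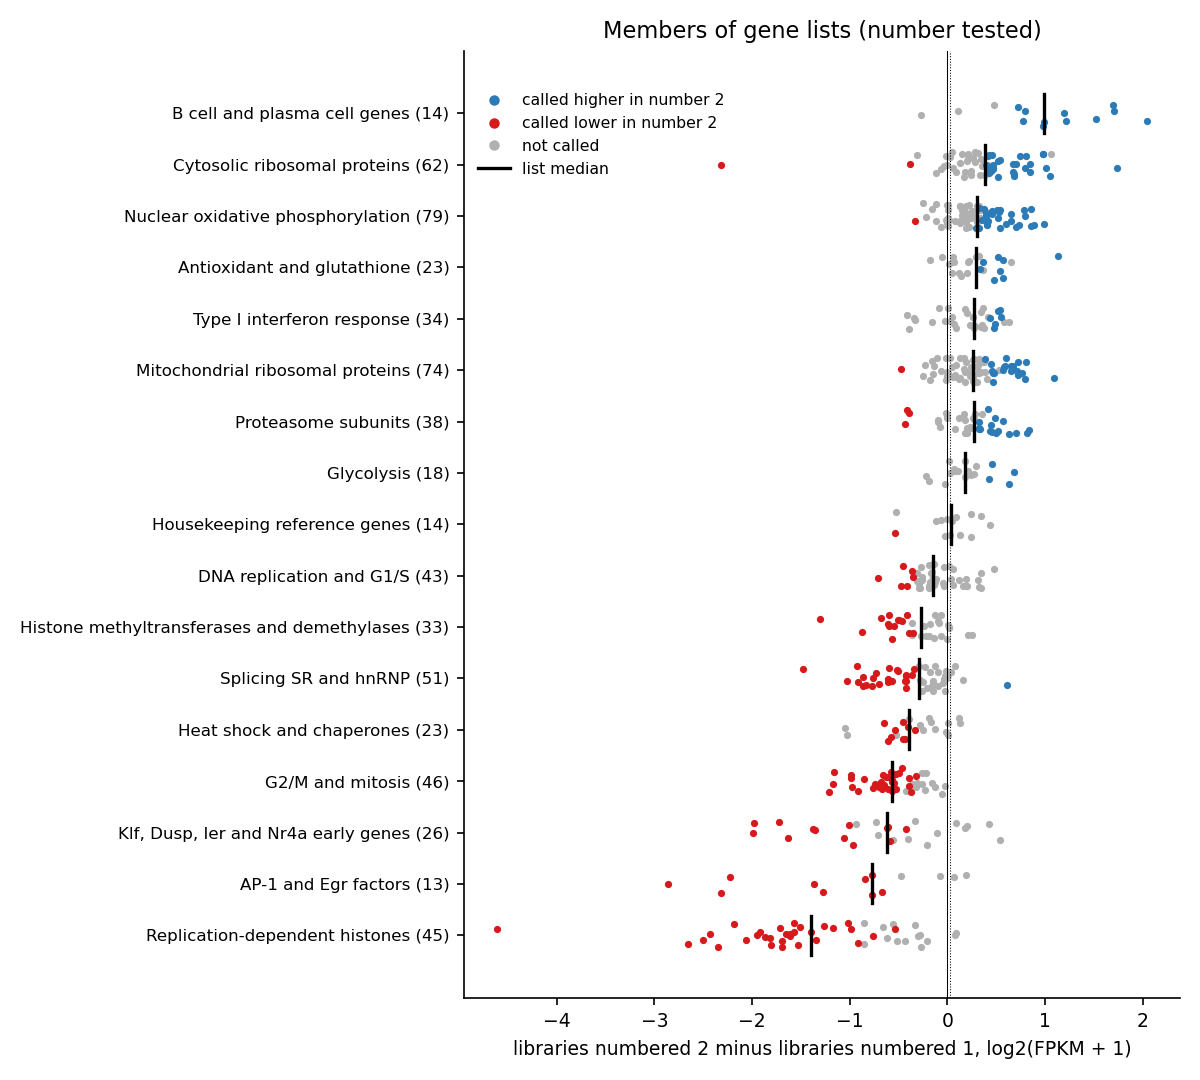
Members of 17 gene lists, 1 point per tested gene, with the log2(FPKM + 1) difference of number 2 minus number 1 on the horizontal axis; blue and red points were called higher and lower, grey points were not, thick bars are list medians, and the dotted line is the median of all genes. Medians run from 0.99 for B cell genes to -1.40 for histone genes, with ribosomal and mitochondrial lists to the right and histone, early and mitosis lists to the left.

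Mitosis genes were lower in number 2. Of 46 tested genes of G2 phase and mitosis, 33 were called lower and 0 higher, against 11.1% and 10.2% of all genes. The median was -0.57, and 40 of the 46 did not overlap between the numbers, where 30% of all genes lay lower without overlap. Mki67, the proliferation antigen that coats mitotic chromosomes, stood at 56.8 FPKM in KI-2 and 46.8 in WT-2, against 122 in KI-1 and 119 in WT-1 (log2 difference -1.21, SE 0.092, limma adjusted p = 0.00498). The kinesin genes Kif20b and Cenpe, which serve cytokinesis and chromosome alignment, fell by 1.16 and 1.18. The genotypes lay close together within each number for all 3 genes. Genes of DNA replication and the G1/S transition moved less: of 43 tested, 6 were called lower and 0 higher, against 11.1% and 10.2% of all genes, with a median of -0.15 that was -0.08 without KI-1 and without WT-2. Pcna, the sliding clamp of DNA polymerases, stood at 465 and 431 FPKM in KI-2 and WT-2, against 585 and 564 in KI-1 and WT-1, and was not called with KI-1, KI-2 or WT-2 left out. Pola1, the polymerase alpha subunit, fell by 0.72. Of 32 Fanconi and break repair genes, 12 were called lower and 0 higher, against the same shares of all genes, with Rad50 down by 0.68. After the trends were subtracted, the mitosis median was -0.48 with 18 genes called lower, the G1/S median -0.15 with 3 and the repair median -0.14 with 2.

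Splicing factors fell as well. Of 51 tested SR and hnRNP genes, 25 were called lower and 1 higher, against 11.1% and 10.2% of all genes. The median was -0.29, and after the trends were subtracted 15 of 50 were called lower with a median of -0.27. Clk1, a kinase of SR proteins whose own transcript is kept partly unspliced in the nucleus, stood at 45.5 FPKM in KI-2 and 50.3 in WT-2, against 115 in KI-1 and 159 in WT-1 (log2 difference -1.48, limma adjusted p = 0.00395). Hnrnph1 fell by 1.03 and Hnrnpa1 by 0.84, and neither overlapped between the numbers. A pair of abundant nucleolar protein genes, chosen after their values were seen, stood in the same order: Ncl at 273 and 262 FPKM in KI-2 and WT-2, against 493 and 491 in KI-1 and WT-1, and Npm1 at 1167 and 1170 against 1953 and 2033.

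Chromatin genes, which are of interest because the knock-in allele lies in Asxl1, shifted between the numbers too. Of 33 histone methyltransferase and demethylase genes, 14 were called lower and 0 higher, against 11.1% and 10.2% of all genes, with a median of -0.27. Kmt2d, an enhancer methyltransferase, stood at 9.13 FPKM in KI-2 and 7.39 in WT-2, against 16.5 in KI-1 and 15.3 in WT-1, Kmt2a fell by 0.68 but was not called without WT-2, and Kdm6b, a demethylase gene induced by inflammatory signals, fell by 1.31. These are long transcripts, with a median of 6654 bases for the list, and after the trends were subtracted the median was -0.17 with 3 genes called lower. Of 37 Polycomb and ASXL genes, 8 were called lower and 1 higher, against 11.1% and 10.2% of all genes, with a median of -0.09 that was -0.14 without WT-2 and 0.011 with 3 called lower after the subtraction. Mtf2, a targeting subunit of Polycomb repressive complex 2, stood at 20.3 and 21.8 FPKM in KI-2 and WT-2, against 35.2 and 35.4 in KI-1 and WT-1, and the catalytic subunit gene Ezh2 fell by 0.46 but was not called without WT-2. Asxl1, described above with its lost calls, is among those 8.

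Markers of some other blood cells differed between the numbers. Of 8 tested T and NK cell genes 0 were called, and of 8 monocyte and macrophage genes 1 was called higher and 0 lower. Of 20 megakaryocyte and platelet genes, 4 were called higher and 2 lower. Of all genes, 10.2% were called higher and 11.1% lower. Of 18 mature neutrophil genes, 9 were in the table and 7 passed the filter, 4 of them only through their level in number 1, so that no count of calls is given. The 7 summed to 5.63 FPKM in KI-2 and 6.93 in WT-2, against 107 in KI-1 and 48.8 in WT-1. Ngp, a granule protein gene of maturing neutrophils, stood at 0.592 FPKM in KI-2 and 0.384 in WT-2, against 34.5 in KI-1 and 12.8 in WT-1, and passed only through number 1. S100a9, whose protein forms calprotectin with that of S100a8, stood at 1.40 and 2.11 FPKM in KI-2 and WT-2, against 37.3 and 14.2 in KI-1 and WT-1. For both genes KI-1 was highest, unlike the early and histone genes, for which WT-1 was. Fewer cells of a type and less RNA per cell cannot be told apart in such bulk libraries.

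Granulocyte-monocyte progenitor genes were lower in part. Of 19 tested, 5 were called lower and 1 higher, against 11.1% and 10.2% of all genes. The median was -0.24, with -0.38 within KI and -0.07 within WT. It was -0.02 without KI-1, -0.37 without KI-2, -0.68 without WT-1 and -0.15 without WT-2. After the subtraction it was -0.35, with 3 called lower and 1 higher. Elane, the neutrophil elastase gene, stood at 20.4 FPKM in KI-2 and 14.1 in WT-2, against 52.1 in KI-1 and 24.9 in WT-1, and Mpo, the myeloperoxidase gene, at 415 and 348 against 780 and 432. Neither was called with KI-1, KI-2 or WT-2 left out. The higher gene was Lyz2, the lysozyme gene of myeloid cells, at 128 and 138 FPKM in KI-2 and WT-2, against 66.3 and 63.2 in KI-1 and WT-1 (log2 difference 1.03). Lysozyme thus went against the other granule genes in both genotypes. Red cell genes were mixed, with 3 of 12 called higher and 3 lower, against 10.2% and 11.1% of all genes. Car1, a carbonic anhydrase gene of erythroid progenitors, stood at 2.09 and 3.79 FPKM in KI-2 and WT-2, against 11.0 and 17.4 in KI-1 and WT-1.

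B-lineage genes were higher in number 2. Of 14 tested B cell and plasma cell genes, 11 were called higher and 0 lower, against 10.2% and 11.1% of all genes, with a median of 0.99. For 3 of the 14, with 2 of the called ones, the mean in number 1 was under 1 FPKM. Igll1, which encodes part of the surrogate light chain that pairs with the heavy chain in the pre-B cell receptor, rose most of the list. It stood at 24.8 FPKM in KI-2 and 12.8 in WT-2, against 5.02 in KI-1 and 2.48 in WT-1 (log2 difference 2.05, SE 0.11, limma adjusted p = 0.00339), and its partner Vpreb1 stood at 15.8 and 6.26 against 4.36 and 1.75 and rose by 1.53. In both genes KI lay above WT within each number. Vpreb3 rose by 1.69 and the receptor signalling gene Cd79a by 1.21. Without KI-2 the list median was 0.68 and Vpreb1 and Cd79a were not called, and without WT-1 the median was 0.60 and Vpreb1 was not called. After the trends were subtracted the median was 0.90 with 6 called higher. The list summed to 251 FPKM in KI-2 and 175 in WT-2, against 176 in KI-1 and 116 in WT-1.

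Some matrix genes of stromal cells were read at low levels. Of 9 tested stromal and endothelial genes, 4 were called higher and 0 lower, against 10.2% and 11.1% of all genes. Of those 4, 2 passed the filter only through number 2 and had to differ, so the count supports nothing. Sparc, a collagen-binding matrix protein gene, stood at 7.12 FPKM in KI-2 and 2.66 in WT-2, against 0.177 in KI-1 and 0.0789 in WT-1 (log2 difference 2.27). Col1a2, a chain of type I collagen, stood at 4.50 and 2.02 against 0.926 and 0.471. Sparc and Col1a2 passed the filter only through number 2. Fstl1, a secreted glycoprotein gene, stood at 12.7 and 8.59 against 3.14 and 3.59. In all 3 genes KI-2 was the highest library. Outside this list, the strongest rise of all genes was that of Pi16, a peptidase inhibitor gene, at 28.4 FPKM in KI-2 and 10.6 in WT-2, against 1.5 in KI-1 and 0.751 in WT-1 (log2 difference 3.14, SE 0.21, limma adjusted p = 0.00395). Gsn, which severs actin filaments and is also outside the list, rose by 1.53. The median of the stromal list was 0.24, and 5 of its 9 tested members were not called. Without KI-2 the median was -0.03 and without WT-1 -0.06, against 0.44 without KI-1 and without WT-2, and Col1a2 was not called without KI-2. With the trends subtracted the median was -0.046, with 4 called higher.

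Among markers of the sorted fraction itself, Kit, Flt3 and Cd34 were not called, while Ly6a was called higher. Of 17 tested LSK gate and stem cell surface genes, 3 were called higher and 1 lower, against 10.2% and 11.1% of all genes, with a median of 0.21. Kit, the receptor used in the gate, stood at 86.9 FPKM in KI-2 and 95.2 in WT-2, against 91.2 in KI-1 and 90.7 in WT-1, and the numbers overlapped. Ly6a, which encodes Sca-1, the other positive gate marker, stood at 36.8 and 37.8 FPKM in KI-2 and WT-2, against 22.7 and 26.9 in KI-1 and WT-1 (log2 difference 0.58, limma adjusted p = 0.0129). Procr and Esam, surface markers of stem cells, rose by 0.50 and 0.60, and Cd48, which marks more committed progenitors, fell by 0.40. Ly6a, Procr, Esam and Cd48 were not called without KI-2 or without WT-2, nor Procr without KI-1 or Cd48 without WT-1. After the trends were subtracted 0 of the 17 were called. Flt3, the receptor of multipotent and lymphoid-primed progenitors, had a difference of -0.09 and Cd34 of 0.17, and neither was called. Of the lineage markers, Ms4a1 and Emr1 were listed with means under 1 FPKM. Of 38 HSC-enriched genes, 7 were called higher and 3 lower, against 10.2% and 11.1% of all genes, with a median of 0.23 that was 0.08 without KI-1 and 0.10 without WT-2, and 0.17 with 2 called higher and 2 lower after the subtraction. Vwf and Hlf rose by 0.49 and 0.37 and Hoxa9 fell by 0.56, but Vwf and Hlf were not called with KI-1, KI-2 or WT-2 left out, nor Hlf without WT-1 or Hoxa9 without KI-2.

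The median of the reference genes lay near that of all genes. Of 14 housekeeping genes, 0 were called higher and 1, the transferrin receptor gene Tfrc, was called lower, against 10.2% and 11.1% of all genes. The list median was 0.03, with members from -0.54 for Tfrc to 0.43 for Actb. Tfrc was not called without KI-1 or without WT-2, and 0 of the 14 were called after the trends were subtracted. Gapdh stood at 865 FPKM in KI-2 and 768 in WT-2, against 797 in KI-1 and 808 in WT-1, and Actb at 546 and 470 against 346 and 408. Actb lay higher without overlap but was not called (log2 difference 0.43, limma adjusted p = 0.0589).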

How the data were processed

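RNA from 4 libraries of LSK cells was sequenced, 2 per genotype. The submitters' processing notes name TopHat, Cufflinks and the mouse build mm10 (GRCm38), without versions. The table the authors deposited gives FPKM for 18691 RefSeq transcripts, with no value of 0 and a lowest value of 1e-06, so genes silent in a library may be missing. 4 other columns of per-sample values were not used.

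FPKM were summed over 13749 symbols, filtered at a mean of 1, rescaled to equal medians and tested as log2(FPKM + 1) with limma 3.58.1 (R 4.3.3; trended prior variance; terms for genotype and library number; two-sided). The fit was checked on simulated data. An exact permutation test of 2 against 2 libraries cannot go below 0.333. Transcript length and GC content, matched for 98.8% of tested genes, came from GENCODE M21 and promoters from RefSeq. Of 57 gene lists, 29 are described. Members and lists were chosen with earlier results of these data known. Genes were named by rule: the 15 coding and 5 noncoding called genes per direction with the largest difference, up to 5 members per list by smallest p and all members of lists of 12 or fewer, and gate, housekeeping and Asxl1 genes. Others, such as genes named for not being called, were chosen after their values were seen. Some genes are not reported here.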

Additional observations from a re-analysis of the deposited data

Results flagged for a closer look

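In 11 results the difference between number 2 and number 1 had opposite signs in the genotypes, so that KI-2 moved one way from KI-1 and WT-2 the other way from WT-1. Whether these differences between the genotypes exceed the spread was not tested, since 4 libraries leave no degree of freedom for it. Limma called none of these genes between the numbers, which opposite signs make nearly certain in this fit. Within KI and within WT in turn, the log2(FPKM + 1) difference was -0.23 and 0.044 for Flt3, 0.12 and -0.074 for Gapdh, -0.069 and 0.068 for Kit and -0.10 and 0.031 for Nfkb1. It was 0.40 within KI and -0.27 within WT for Fosl2 and 0.33 within KI and -0.48 within WT for Junb, a pair of early genes. Hspa1a had 0.32 within KI and -2.37 within WT, and Hspa1b, its near-identical copy, had 0.33 within KI and -2.42 within WT. Among histones, Hist1h4h had 0.41 within KI and -0.96 within WT, and Hist2h2be had -0.27 within KI and 0.45 within WT. The median of the housekeeping list was 0.11 within KI and -0.00061 within WT.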

How the results depend on the processing

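Against 2360 genes called between the numbers, limma called 4659 without rescaling (88.2% of them higher, against 48.1%), 1125 without the filter, 1097 with a single prior variance, 0 when each transcript was tested on its own and 689 after subtraction of length and GC trends, a step added after the data were seen. With 1 library left out in turn the count lay between 550 and 2663, and the lone sample of its number was then assumed to vary like the others. The other 7 alternatives gave 2176 to 2758 genes. The cause of these changes was not tested.

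With the library number as a replicate block, 1 gene was called between KI and WT, against 0 on genotype alone. The number differences of the genotypes had an r of 0.69 across genes, but there are only 2 pairs and the labels give the numbers no meaning.

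Under 16 alternatives, 21 of 29 list medians and 99 of 109 named genes never changed sign. The other 10 genes were not called between the numbers. Without rescaling, the medians became positive for the snoRNA hosts (0.078), NF-kB genes (0.23), G1/S genes (0.11), Fanconi genes (0.013), histone methyltransferases (0.0042) and Polycomb genes (0.18), as did Flt3 (0.19), Junb (0.20), Kit (0.28) and Nfkb1 (0.24). Kit was 0.058 and Nfkb1 0.011 with quantile normalization, Kit 0.016 with equal upper quartiles, and Kit 0.0095 and the stromal median -0.13 with a mean FPKM of at least 5. With the trends subtracted, the values were 0.011 for Polycomb, -0.046 for stromal genes, -0.26 for Gapdh, -0.034 for H1f0 and 0.071 for Kit.

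With 1 library left out in turn, the medians ran from -0.093 to 0.010 for NF-kB genes, from -0.056 to 0.44 for stromal genes and from -0.0037 to 0.10 for housekeeping genes. The differences ran from -0.23 to 0.050 for Flt3, from -0.42 to 0.55 for Fosl2, from -0.064 to 0.11 for Gapdh, from -0.12 to 0.29 for H1f0 and for Hist2h2be, from -1.02 to 0.47 for Hist1h4h, from -2.06 to 0.0045 for Hspa1a, from -0.41 to 0.26 for Junb, from -0.065 to 0.065 for Kit and from -0.071 to 0.0064 for Nfkb1. Depth is unknown from FPKM, so no limit from counting can be given.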

Other observations

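Gene groups outside the lists above moved in both directions, with values only. Of all tested genes 10.2% were called higher and 11.1% lower, the shares beside which the counts below stand. Of 58 tested translation initiation and elongation genes, 11 were called higher and 10 lower by limma in number 2, with a median log2 difference of 0.02: the small eIF3 subunit genes Eif3i, Eif3k and Eif3h rose by 0.85, 0.79 and 0.77, and the large subunit gene Eif3a fell by 0.70. After length and GC trends were subtracted, 5 were called higher and 2 lower. Of 31 lysosome and autophagy genes, 7 were called higher and 1 lower, with a median of 0.20, and of 24 actin, tubulin and small cytoskeletal genes, 7 higher and 1 lower, with a median of 0.17. After the subtraction these medians were 0.094 and 0.043, with 3 and 1 called higher. Of 22 cholesterol synthesis genes, 3 were called higher and 0 lower, with Mvd at 0.65, which was not called without KI-2, WT-1 or WT-2, and 0 were called after the subtraction. Of 289 zinc finger genes, 11 were called higher and 26 lower, with a median of 0.02, and 2 higher and 5 lower after the subtraction.

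Circadian and glucocorticoid response genes were mostly not called, as were most of all tested genes. Per1, a core clock gene that is also induced by glucocorticoids and cyclic AMP, stood at 43.5 FPKM in KI-2 and 39.3 in WT-2, against 84.5 in KI-1 and 82.7 in WT-1, and fell by 1.0 (limma adjusted p = 0.00498). In all, 1 of 19 clock genes was called higher and 2 lower, and 1 of 14 glucocorticoid response genes higher and 3 lower. Of all tested genes, 10.2% were called higher and 11.1% lower.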
